A study of Mus musculus with 9 samples.

Results

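Replication-dependent histone genes encode the linker histone H1 and the core histones H2A, H2B, H3 and H4 that package newly made DNA. The genes described here were those of the deposited count table whose symbol began with Hist1, Hist2, Hist3 or Hist4 followed by h1, h2a, h2b, h3 or h4, and whose counts summed over all 9 libraries reached at least 30. The symbol pattern found 70 of the 55450 identifiers in the table, and 64 of them reached 30 counts. These 64 were 5 H1, 17 H2A, 17 H2B, 12 H3 and 13 H4 genes, and all 64 passed the filter on low counts, among 14246 genes tested. The 6 genes under the threshold were Hist1h1t with 21 summed counts, Hist1h2aj with 6.97, Hist1h2al with 4.7, Hist1h2ba with 4.15, and Hist1h2aa and Hist3h2ba at 0. The lowest genes inside it were Hist1h1a with 286 and Hist3h2bb-ps, annotated as a processed pseudogene, with 1046.

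RNA was measured in IMM cells, an immortalized mouse macrophage line with genotype WT, at 3 times of stimulation with lipopolysaccharide (LPS), a component of the outer membrane of Gram-negative bacteria. Cells were taken at 0, 30 and 60 min of 100 ng/mL LPS, with 3 libraries at each time, which the design text calls biological replicates and of which the 0 min libraries are the control. All cells came from a single line, were grown in DMEM with serum, and were used after 5 passages from a thaw. Total RNA was depleted of ribosomal RNA before stranded libraries were made, so RNA without a poly(A) tail was kept. Macrophage markers were present throughout, with 9 of 9 detected and a summed level of 2030 to 2120 CPM (counts scaled to the library total) at 0 min, while 4 of 4 mast cell markers were at 0 and the highest marker of any other cell type averaged 0.801 CPM (Pecam1). No 30 or 60 min libraries without LPS were analysed here, so LPS and the time and handling that go with it cannot be told apart.

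The mRNAs of these genes differ from nearly all others in ending in a conserved stem-loop instead of a poly(A) tail. The stem-loop-binding protein Slbp binds this stem-loop, and the U7 small nuclear ribonucleoprotein also takes part when the transcript is cut. The stem-loop further controls how quickly the mRNA is degraded. Transcription of the clusters depends on Npat, a substrate of cyclin E and Cdk2, and the mRNAs are abundant in S phase and are degraded when DNA synthesis stops. In RNA from whole cultures, fewer cells in S phase and less histone mRNA per cell cannot be told apart.

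The 64 genes lay in 4 places of the mouse genome (GRCm38, which is mm10). The Hist1 cluster on chromosome 13 held 51, the Hist2 cluster on chromosome 3 held 10, 2 lay on chromosome 11 and Hist4h4 lay alone on chromosome 6. In the GENCODE M21 annotation, 59 of the 64 had a single block of exon sequence. A stem-loop with a perfectly paired arm of 6 bases and a loop of 4 bases was found after the stop codon of 44 genes, 21 to 58 bases downstream of it. Of the other 20 gene models, 13 ended at the stop codon, 6 ran on without such a match and 1 was not coding. The following stem-loops are shown because they are the shared 3' element of the group and differ by class. They are written 5' to 3' as DNA from the annotated GENCODE M21 transcripts, with the paired arms and the loop in capitals and flanking bases in lower case.
Hist1h1d (H1): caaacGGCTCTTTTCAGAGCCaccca
Hist3h2a (H2A): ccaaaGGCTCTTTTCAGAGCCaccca
Hist2h2ac (H2A): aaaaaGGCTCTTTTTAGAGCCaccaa
Hist1h2bh (H2B): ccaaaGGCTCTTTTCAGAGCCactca
Hist2h3c1 (H3): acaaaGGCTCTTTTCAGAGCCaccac
Hist1h3f (H3): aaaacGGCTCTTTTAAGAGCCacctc
Hist1h3g (H3): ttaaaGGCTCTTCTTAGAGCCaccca
Hist1h4h (H4): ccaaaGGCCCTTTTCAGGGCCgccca
Hist1h4j (H4): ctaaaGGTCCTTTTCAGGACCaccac
Hist2h4 (H4): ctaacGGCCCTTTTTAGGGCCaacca
The capitals lie at chr13:23555787-23555802 (plus strand) for Hist1h1d, chr11:58955172-58955187 (plus) for Hist3h2a, chr3:96220418-96220433 (minus) for Hist2h2ac, chr13:23542928-23542943 (minus) for Hist1h2bh, chr3:96247327-96247342 (plus) for Hist2h3c1 and chr13:23544932-23544947 (plus) for Hist1h3f. They lie at chr13:23535889-23535904 (plus) for Hist1h3g, chr13:23531458-23531473 (plus) for Hist1h4h, chr13:21735437-21735452 (plus) for Hist1h4j and chr3:96262939-96262954 (minus) for Hist2h4, all on GRCm38. The form in Hist1h1d was carried by 25 genes of the H1, H2A, H2B and H3 classes. The H4 genes had arms of their own: 7 had the form in Hist1h4h, 2 that in Hist1h4j, 2 that in Hist2h4, and Hist1h4a alone a further one.

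Many of these genes are near-identical, and the way reads are shared among copies sets what can be said of any single gene. The 13 H4 genes have an annotated protein in common, 8 H3 genes share one and the other 4 H3 genes share one, and 7 groups with a common annotated protein together hold 45 of the 64 genes. For each gene, the 75-base windows of its longest transcript were looked up, in both orientations, in the transcripts of all other genes. Matches to antisense transcripts thus count too, which would overstate shared reads if the counting was stranded. In 31 genes over 50% of the windows occurred elsewhere, and in 5 genes all of them did. Only 8 genes had under 10% of their windows elsewhere: Hist1h1a, Hist1h1b, Hist1h1c, Hist1h1d, Hist2h2be, Hist1h4d, Hist2h4 and Hist4h4. The authors' counting divides a read that matches several genes among them by estimate, so values of the other 56 are less certain gene by gene than as sums.

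At 0 min the histone genes were a visible part of the RNA. They took 0.746% to 0.837% of all counts in the 0 min libraries, 0.828% to 0.884% in the 30 min libraries and 0.647% to 0.703% in the 60 min libraries. Levels of different genes are compared as CPM per kilobase of annotated exon. On that scale the 0 min means ran from 899 for Hist2h2bb, 779 for Hist2h3b and 773 for Hist2h2aa2 down to 8.06 for Hist2h2be and 1.31 for Hist1h1a. Gene models ran from 312 to 7425 bases, and 21 of them extended 108 to 4884 bases beyond the stem-loop, which lowers the level per kilobase where the extension holds few reads.

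The summed level of the histone genes was higher at 30 min than at 0 min and lowest at 60 min. Summed over all 64 genes, the 0 min libraries had 8246, 7332 and 7973 CPM, the 30 min libraries 8301, 8643 and 8815 CPM, and the 60 min libraries 6583, 7248 and 6862 CPM. The 3 times did not overlap, although the lowest 30 min library stood only just above the highest 0 min library, and the 60 and 0 min groups were nearly as close. With total counts alone in place of the scaled totals, the 30 and 0 min sums overlapped. The mean at 30 min was 9.37% above that at 0 min (8586 ± 262 CPM at 30 min and 7850 ± 469 CPM at 0 min, SD, n = 3 each). At 60 min the mean was 6898 ± 334 CPM, a change of -19.7% from 30 min and of -12.1% from 0 min. No test was made of these sums.

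**Figure D1:**
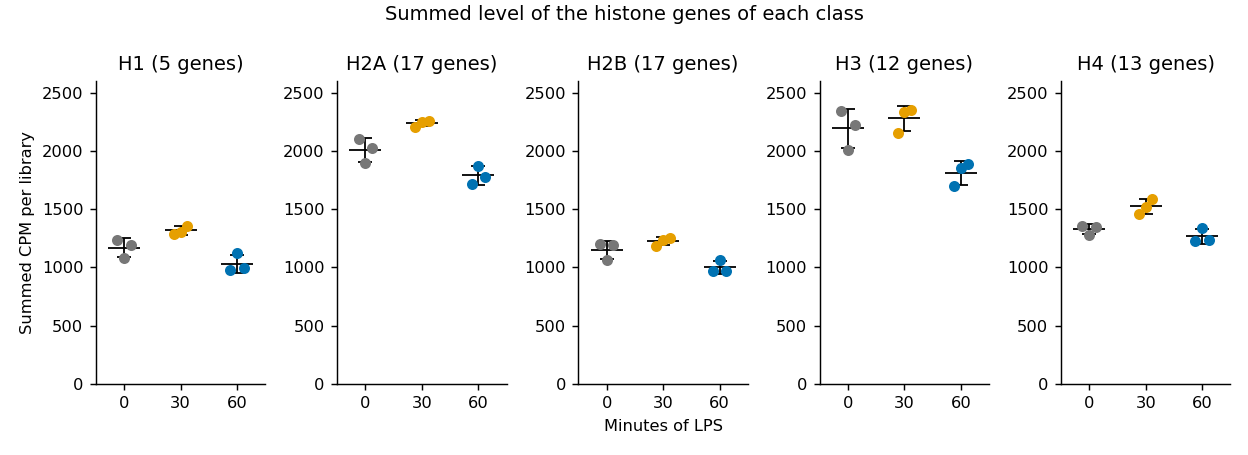
Summed CPM of the histone genes of each class (vertical axis, from 0) at 0, 30 and 60 min of LPS (horizontal axis). Each point is 1 library, and the bars give the mean ± SD of 3 libraries. In all 5 classes the 60 min libraries lie below the 30 min libraries, and H4 averaged 1328, 1524 and 1266 CPM at 0, 30 and 60 min.

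The sums of H4 and H3 changed by different amounts, and the difference was not tested. H4, which pairs with H3 in the nucleosome core, averaged 1524 ± 65.3 CPM at 30 min and 1328 ± 43.2 CPM at 0 min, and its 30 min libraries were all above its 0 min libraries. H3 averaged 2281 ± 108 CPM at 30 min and 2193 ± 170 CPM at 0 min, and its groups overlapped. At the later time H3 averaged 1812 ± 102 CPM, a change of -17.4% from 0 min without overlap, whereas H4 averaged 1266 ± 64.4 CPM, a change of -4.69% with overlapping groups. The H3 to H4 ratio of summed CPM was 1.73, 1.57 and 1.65 in the 0 min libraries, 1.48, 1.54 and 1.48 in the 30 min libraries, and 1.39, 1.38 and 1.53 in the 60 min libraries. All 6 libraries with LPS thus had a lower ratio than the 0 min libraries. H1, which binds the linker DNA, changed by 12.6% at 30 min against 0 min and by -21.8% at 60 min against 30 min. H2A changed by 11.6% and -20.1% in these comparisons, and H2B, its partner in the nucleosome, by 6.23% and -18.3%. The sign of each class change was the same with total counts alone and with RLE size factors. With total counts alone, however, H4 changed by -9.13% at 60 min against 0 min, and its groups did not overlap.

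At 30 min against 0 min, 14 of the 64 genes rose and 1 fell by edgeR's quasi-likelihood test at an adjusted p under 0.05. Those were 21.9% and 1.56% of the genes, beside 4.84% of all genes tested called higher and 3.35% called lower. The median log2 change was 0.17 over the 64 genes and 0.01 over all genes. The estimate was positive in 57 of 64. In 26 genes every 30 min library was above every 0 min library, as was so for 14.1% of all genes tested. The genes that rose were 6 of the 13 H4 genes, 3 of the 17 H2A, 3 of the 17 H2B, 1 of the 12 H3 and 1 of the 5 H1 genes. The rises were small: from 0.23 for Hist1h4c to 0.42 for Hist1h2ae on the log2 scale.

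Hist1h4h is shown for H4. It had 106, 103 and 110 CPM at 0 min, 129, 132 and 141 CPM at 30 min, and 106, 123 and 108 CPM at 60 min. The 30 min libraries were above all others. Its log2 change at 30 min was 0.33 with a standard error of 0.05 (adjusted p = 0.00102). Hist1h4k, also H4, had 49.1, 53.1 and 54.5 CPM at 30 min, against 35.6, 37.5 and 45.0 CPM at 0 min. Its log2 change of 0.41 (adjusted p = 0.00248) was the largest of the H4 genes at 30 min. Hist1h4f rose by 0.30 (adjusted p = 0.00248) and Hist1h4a by 0.28 (adjusted p = 0.0068). Hist1h2bc, an H2B gene, had 52.2, 55.4 and 52.5 CPM at 30 min, against 41.4, 40.9 and 42.1 CPM at 0 min. It rose by 0.37 ± 0.06 (SE; adjusted p = 0.00062) and its groups did not overlap. Hist3h2a, the H2A gene on chromosome 11, rose by 0.24 (adjusted p = 0.0024).

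These 6 genes, Hist1h2bc, Hist1h4a, Hist1h4f, Hist1h4h, Hist1h4k and Hist3h2a, were called under all 16 single-gene alternatives of test, scaling, filter, replicate block and left-out library. The other 8 were less firm. Their largest adjusted p over the 16 alternatives ran from 0.0638 for Hist1h4j to 0.187 for Hist1h1c. Hist1h1c, at an adjusted p of 0.0499 in the first place, lost the call in 11 of the 16, with adjusted p between 5.77e-07 and 0.187. The count of genes that rose was 6 without 0 min replicate 2 and likewise 6 without 30 min replicate 3. It was 9 without 0 min replicate 1 and 9 without 30 min replicate 2. The count of genes that fell was 2 without 0 min replicate 2.

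**Figure D2:**
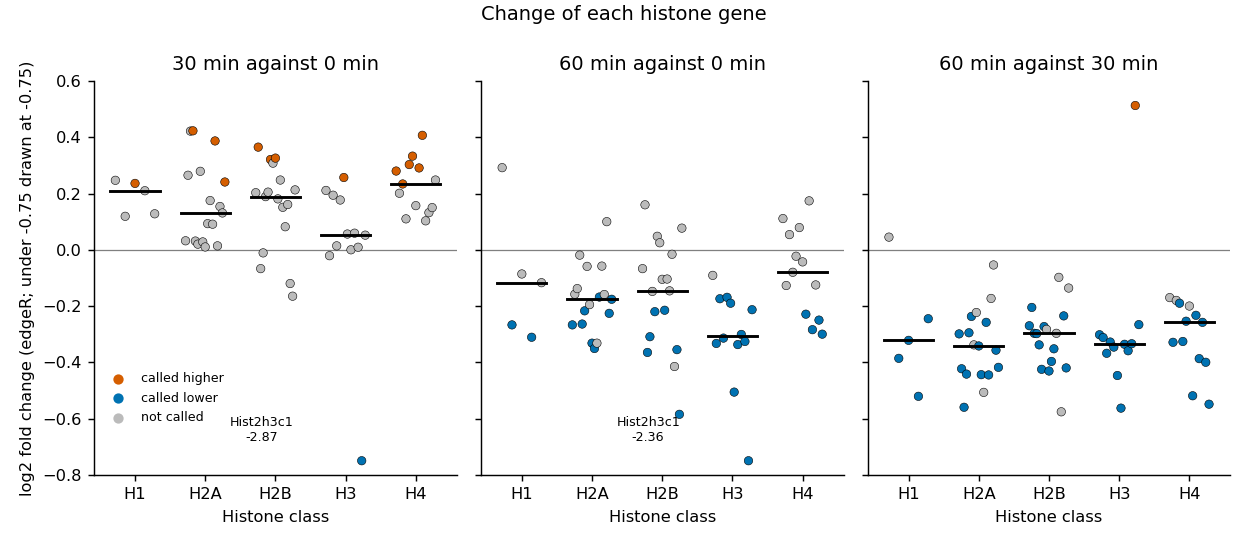
Log2 fold change of each of the 64 histone genes (vertical axis) by class (horizontal axis) for the 3 comparisons, from edgeR. Orange points are called higher, blue points lower and grey points neither at an adjusted p of 0.05, black lines are class medians, and Hist2h3c1 is drawn at the lower edge with its value (-2.87 and -2.36). The H4 median is the highest of the 5 classes in the middle panel (-0.08) and the H3 median the lowest (-0.31).

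In the comparison of 60 min with 0 min, 31 of the 64 genes fell and 0 rose. The 31 were 48.4% of the genes, beside 11.7% of all genes tested called lower and 13.3% called higher. For the count of 0, 2 genes had a positive change at an unadjusted p under 0.05, and DESeq2 and limma-voom also called 0. The count was 1 without 0 min replicate 3 and 1 without 60 min replicate 3. The median log2 change was -0.17, against 0.00 over all genes. By class, 11 of the 12 H3 genes fell, 8 of the 17 H2A, 6 of the 17 H2B, 4 of the 13 H4 and 2 of the 5 H1 genes. Medians were -0.31 for H3, -0.18 for H2A, -0.15 for H2B, -0.12 for H1 and -0.08 for H4. Whether the classes differed beyond the spread was not tested. The count of 31 was 19 without 60 min replicate 1.

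Among the H3 genes, Hist1h3g had 167, 138 and 148 CPM at 0 min, 148, 163 and 160 CPM at 30 min, and 98.1, 108 and 112 CPM at 60 min. Its 60 min libraries were below all others, and its log2 change was -0.51 ± 0.07 (SE) against 0 min (adjusted p = 4.37e-05). Hist1h3b fell by 0.33 (adjusted p = 0.00032), Hist2h3b by 0.33 (adjusted p = 0.00404) and Hist1h3d by 0.31 (adjusted p = 0.00462). Hist2h3c2, an H3 gene of the Hist2 cluster, had 788, 673 and 751 CPM at 0 min, 733, 772 and 790 CPM at 30 min, and 596, 658 and 655 CPM at 60 min. Its change against 0 min was -0.21 (adjusted p = 0.0117, lost without 0 min replicate 1 or 60 min replicate 1, with adjusted p up to 0.0642 and as low as 1.04e-06 under the alternatives). Hist1h3a was the single H3 gene not called, at -0.09 (adjusted p = 0.332).

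Of the genes that share few reads with others, Hist2h2be, an H2B gene of the Hist2 cluster, changed most. It had 21.2, 19.0 and 23.2 CPM at 0 min, 17.6, 21.1 and 17.8 CPM at 30 min, and 13.5, 14.6 and 14.2 CPM at 60 min. At 60 min it fell by 33.3% against 0 min (log2 change -0.59 ± 0.09 SE, adjusted p = 0.000175), without overlap. The linker histone gene Hist1h1d had 321, 274 and 305 CPM at 0 min, 356, 324 and 361 CPM at 30 min, and 224, 270 and 232 CPM at 60 min. It fell by 0.31 against 0 min (adjusted p = 0.00428) and its 30 min libraries were the highest. Hist1h1b fell by 0.27 (adjusted p = 0.00326), Hist2h4 by 0.25 (adjusted p = 0.0036) and Hist4h4 by 0.30 (adjusted p = 0.0128). Leaving out 0 min replicate 3, or 60 min replicate 1, ended the Hist4h4 call, where its adjusted p reached 0.0651, the alternatives starting at 5.48e-07. Hist1h4d and Hist1h1c were not called, at -0.08 and -0.09, and Hist1h1a, with about 1 CPM, was at 0.29 (adjusted p = 0.349).

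Only 3 genes were both called higher at 30 min and called lower at 60 min against the same 0 min libraries. They were Hist3h2a, Hist1h3f and Hist1h4j. Hist3h2a had 48.3, 46.2 and 47.8 CPM at 0 min, 53.1, 57.9 and 57.1 CPM at 30 min, and 40.7, 42.1 and 43.1 CPM at 60 min. No library of any time overlapped with those of another time. Its change at 60 min against 0 min was -0.18 (adjusted p = 0.00838), and both of its calls held under all 16 alternatives. Hist1h3f changed by 0.26 at 30 min (adjusted p = 0.023) and by -0.19 at 60 min (adjusted p = 0.046). Hist1h4j changed by 0.29 at 30 min (adjusted p = 0.0127) and by -0.23 at 60 min (adjusted p = 0.0216). The 60 min call of Hist1h3f was lost in 8 of 16 alternatives (adjusted p from 4.28e-05 to 0.169), and that of Hist1h4j in 4 of 16 (3.33e-05 to 0.0776). For Hist1h4j these were the fits without 0 min replicate 1 or 3 and without 60 min replicate 1 or 3.

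The most calls were made between 60 min and 30 min, where 49 of the 64 genes fell and 1 rose. The 49 were 76.6% of the genes and the 1 was 1.56%, beside 7.65% of all genes tested called lower and 8.87% called higher. The median log2 change was -0.33 over the histone genes and 0.00 over all genes, and the estimate was negative in 62 of 64. In 51 genes every 60 min library was below every 30 min library, as was so for 16.7% of all genes tested. The fall reached all classes: 11 of 12 H3 genes, 12 of 17 H2A, 12 of 17 H2B, 10 of 13 H4 and 4 of 5 H1. Class medians lay close together, at -0.34 for H2A, -0.34 for H3, -0.32 for H1, -0.30 for H2B and -0.26 for H4. Of the 49 calls, 37 held under all 16 alternatives.

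Large called falls were those of Hist1h3g at -0.56 (adjusted p = 3.08e-05), Hist4h4 at -0.55 (adjusted p = 0.000219), Hist1h1d at -0.52 (adjusted p = 0.000119) and Hist1h4j at -0.52 (adjusted p = 7.38e-05). Hist1h2ad was at -0.56 (adjusted p = 0.0371), with 39.8, 43.4 and 23.1 CPM at 60 min and 49.9, 52.1 and 54.5 CPM at 30 min. Its call was lost in 6 of 16 alternatives (adjusted p from 2.71e-24 to 0.148): with DESeq2, with the replicate block, and without any of the 30 min replicates or 60 min replicate 3. Without 60 min replicate 3 its change was -0.33. The smallest p belonged to Hist3h2a, at -0.42 ± 0.04 (SE; adjusted p = 1.12e-05). Hist4h4, alone on chromosome 6, had 29.1, 35.6 and 31.1 CPM at 60 min, all below the 44.5, 45.0 and 50.5 CPM at 30 min. Of the 8 genes with few shared windows 7 fell, the exception being Hist1h1a at 0.05 (adjusted p = 0.921). Hist1h4d, one of them, fell by 0.19 (adjusted p = 0.00953), which without 60 min replicate 1 gave 0.0565 (the alternatives starting at 5.33e-05). Falls were thus called both among genes with few shared windows and among the other 56, of which 42 fell. Of all genes tested, 7.65% were called lower.

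Summing the counts of genes with a common protein before the fit gave 26 features, 19 of them single genes. Reads shared with genes outside a sum are still divided by estimate. The sum of the 13 H4 genes rose at 30 min by 0.20 ± 0.05 (SE; adjusted p = 0.0135), was at -0.07 at 60 min against 0 min (adjusted p = 0.298) and fell by 0.27 at 60 min against 30 min (adjusted p = 0.000793). The sum of the 8 H3 genes with the protein of Hist1h3b was at 0.05 at 30 min (adjusted p = 0.649) and fell by 0.26 at 60 min against 0 min (adjusted p = 0.00299). The sum of the 4 H3 genes with the protein of Hist1h3a was at 0.08 at 30 min (adjusted p = 0.56) and fell by 0.35 at 60 min against 0 min (adjusted p = 0.00147). The 9 H2A genes with the protein of Hist1h2ab had 0.11 (adjusted p = 0.185) and -0.20 (adjusted p = 0.00538) in these comparisons. The 6 H2B genes grouped with Hist1h2bf rose by 0.15 at 30 min (adjusted p = 0.0329) and fell by 0.14 at 60 min against 0 min (adjusted p = 0.0173). The difference between the H3 and H4 sums was not itself tested.

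A pair of H2B genes shows how the counts of copies trade places. Hist1h2br, with 87.1% of its 75-base windows elsewhere, had 708, 0 and 850 counts at 0 min, 482, 811 and 414 at 30 min, and 390, 6 and 777 at 60 min. Hist1h2bq, with 95.9% of its windows elsewhere, had 1181, 2008 and 1171 counts at 0 min, 1572, 1399 and 1582 at 30 min, and 1234, 1945 and 1199 at 60 min. Hist1h2bq was highest in the 2 libraries in which Hist1h2br was at 0 or 6. Neither gene was called in any comparison, while their sum ran between 1624 and 2210 counts. In a fit with the sum in place of both, chosen after seeing these values, it fell at 60 min against 30 min by 0.21 (adjusted p = 0.0172). The H2A genes Hist2h2aa1 and Hist2h2aa2 have all windows in another gene. Hist2h2aa1 was called higher at 30 min at 0.39 (adjusted p = 0.0214), a call lost with DESeq2 and on leaving out 0 min replicate 1 or 2 or 30 min replicate 2 or 3 (adjusted p from 1.5e-19 to 0.101), and Hist2h2aa2 was at 0.01 (adjusted p = 0.953). Their sum rose by 0.22 at 30 min (adjusted p = 0.012) and fell by 0.32 at 60 min against 30 min (adjusted p = 0.000297).

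**Figure D3:**
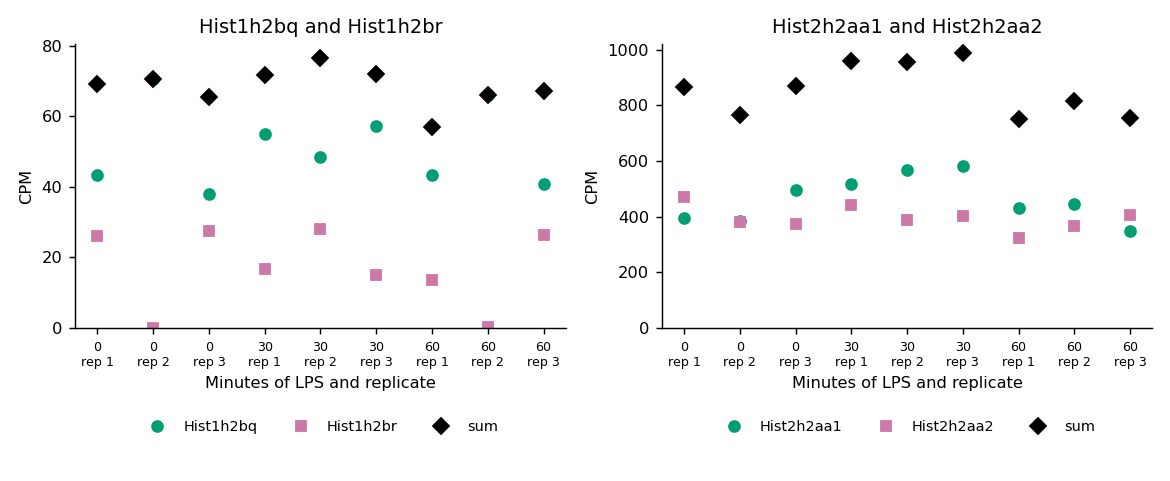
CPM (vertical axis, from 0) of Hist1h2bq and Hist1h2br and of Hist2h2aa1 and Hist2h2aa2, with the sum of each pair as black diamonds, in each of the 9 libraries (horizontal axis). Where Hist1h2br lies at 0 or 0.203 CPM, Hist1h2bq lies under the diamond of the sum.

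Hist2h3c1 was the single gene called lower at 30 min and had the largest change of the 64 genes in both comparisons with 0 min. It is an H3 gene of the Hist2 cluster whose annotated exon spans chr3:96246685-96248509 on the plus strand and runs 1167 bases past its stem-loop. It had 22.4, 24.5 and 24.3 CPM at 0 min, 2.59, 4.09 and 3.03 CPM at 30 min, and 3.65, 4.95 and 5.26 CPM at 60 min. Both later times lay far below 0 min. The fall was 7.31-fold at 30 min (log2 change -2.87 ± 0.14, adjusted p = 4.33e-09) and 5.12-fold at 60 min (-2.36 ± 0.13, adjusted p = 7.24e-09), and both calls held under all 17 alternatives. The authors' deposited table gave log2 changes of -2.88 at 30 min and -2.36 at 60 min. Between 60 and 30 min it was called higher, at 0.51 (adjusted p = 0.0438). The CPM of those groups overlapped, and that call was lost in 9 of 17 alternatives (adjusted p from 0.000342 to 0.161): with limma-voom, with total counts alone, and without 7 single libraries (0 min replicates 1, 2 and 3, 30 min replicates 1 and 3, 60 min replicates 2 and 3).

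The counts of Hist2h3c1 cannot be separated from those of Gm20634, a processed transcript on the same strand that contains its whole exon and also overlaps Hist2h2aa1. Gm20634 itself had 35.7, 29.6 and 33.6 CPM at 0 min, 16.8, 13.7 and 15.2 CPM at 30 min, and 23.9, 15.1 and 17.8 CPM at 60 min. It fell by 1.11 at 30 min (adjusted p = 5.28e-05) and by 0.80 at 60 min (adjusted p = 0.000327). The sum of both loci, fitted after seeing these values, had 1584, 1538 and 1784 counts at 0 min, 555, 515 and 505 at 30 min, and 785, 592 and 679 at 60 min. It fell by 1.62 at 30 min (adjusted p = 7.93e-09) and by 1.27 at 60 min (adjusted p = 2.99e-08), and rose by 0.35 at 60 min against 30 min (adjusted p = 0.0153). All windows of Hist2h3c1 occurred in another gene and 33.8% in another histone gene. Hist2h2aa1, upstream on the same strand, was at 0.39 at 30 min (adjusted p = 0.0214), and Hist2h3c2, the H3 copy in reverse orientation nearby, was at 0.05 (adjusted p = 0.652).

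**Figure D4:**
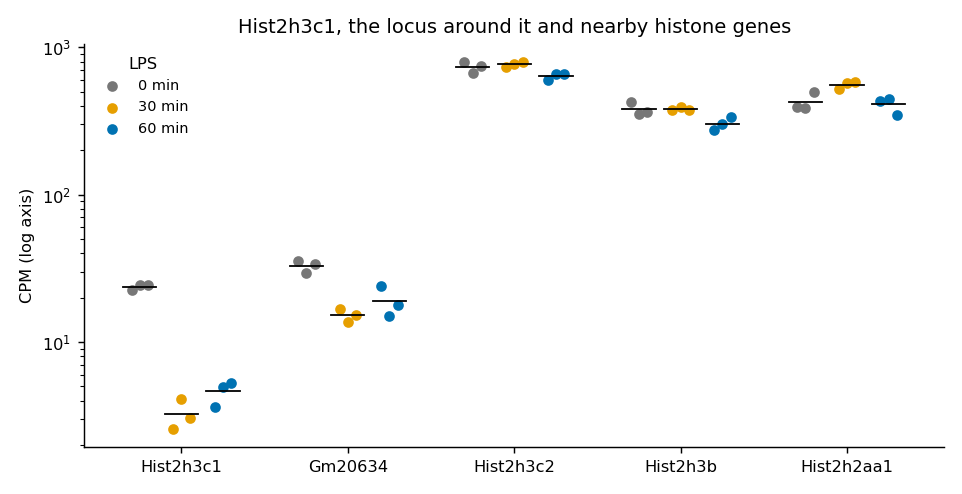
CPM (log axis) of Hist2h3c1, of Gm20634, which contains its exon, and of the nearby histone genes Hist2h3c2, Hist2h3b and Hist2h2aa1 at 0, 30 and 60 min of LPS. Points are libraries and lines are means of 3. Hist2h3c1 lies at 2.59 to 5.26 CPM in the 6 libraries with LPS and at 22.4 to 24.5 CPM at 0 min.

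The promoters of both H3 copies are shown because the genes differ in their values while their upstream sequence is nearly the same. Each window holds the 150 bases before the RefSeq start, 5' to 3' on the gene's strand, from RefSeq promoter sequence of GRCm38.p6. Capitals mark the matches to 3 motifs searched on both strands: the TATA box as TATAAA, the CCAAT box as CCAAT, and the octamer as ATTTGCAT. The windows of Hist2h3c1 (chr3:96246535-96246684, plus strand) and Hist2h3c2 (chr3:96239128-96239277, minus strand) have no match in these 150 bases and share an unbroken run of 131 bases.
Hist2h3c1: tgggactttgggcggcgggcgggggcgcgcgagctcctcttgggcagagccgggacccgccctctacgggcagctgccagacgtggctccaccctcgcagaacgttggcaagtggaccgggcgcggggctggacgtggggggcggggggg
Hist2h3c2: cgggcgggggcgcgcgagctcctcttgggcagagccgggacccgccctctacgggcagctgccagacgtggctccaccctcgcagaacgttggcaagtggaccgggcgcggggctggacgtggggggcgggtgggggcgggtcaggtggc
For comparison, 3 genes that moved with the group are given, Hist1h1d (chr13:23554882-23555031, plus), Hist3h2a (chr11:58954535-58954684, plus) and Hist1h4h (chr13:23530894-23531043, plus). The GENCODE M21 model of Hist1h1d starts further upstream, at chr13:23553262, so the window of Hist1h1d lies inside that model.
Hist1h1d: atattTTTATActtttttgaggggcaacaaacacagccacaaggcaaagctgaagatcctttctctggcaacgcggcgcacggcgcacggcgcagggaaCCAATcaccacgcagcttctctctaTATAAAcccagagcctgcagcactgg
Hist3h2a: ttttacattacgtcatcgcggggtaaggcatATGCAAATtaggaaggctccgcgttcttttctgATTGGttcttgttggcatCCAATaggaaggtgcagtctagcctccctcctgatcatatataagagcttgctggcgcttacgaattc
Hist1h4h: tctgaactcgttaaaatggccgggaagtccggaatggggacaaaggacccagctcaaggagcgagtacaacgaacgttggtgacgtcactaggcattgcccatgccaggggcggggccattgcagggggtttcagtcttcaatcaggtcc

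A promoter window of 250 bases before and 50 after the RefSeq start could be matched for 58 of the 64 genes. CCAAT was present in all 5 H1, 17 H2A, 14 H2B and 10 H3 windows and in 3 of 12 H4 windows, against 37.4% of all 32851 windows. TATAAA was present in 32 of 58, against 13.6% of all windows. The octamer, the binding sequence of Oct1, was present in 6 of 17 H2A and 5 of 14 H2B windows and in 0 of the H1, H3 and H4 windows, against 1.74% of all windows. Hist1h4h held none of the 3, and a missing match says only that these letters are not in the window.

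Grouped by where the gene model ends, the medians lay close together at 60 min against 30 min. Models that end 3 to 74 bases after the stem-loop fall near the natural end of the mRNA, and 19 of these 23 genes fell at 60 min against 30 min with a median of -0.30. Of the 21 models that extend further, 17 fell and 1 rose, with a median of -0.34. A polyadenylation signal (AATAAA) followed the stem-loop in 12 of those 21 and in 0 of the 23 short ones. Models that end at the stop codon had 10 of 13 lower and a median of -0.34, and the 6 that run on without a stem-loop match had 3 lower and a median of -0.27. By location, 40 of 51 genes of the Hist1 cluster on chromosome 13 and 7 of 10 of the Hist2 cluster on chromosome 3 fell in this comparison. Of all genes tested, 7.65% were called lower and 8.87% higher in it.

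Around the histone genes, 38 other annotated genes lay within 5000 bases, 19 of them small RNA models annotated as miRNAs, and 12 were tested. Of these 12, 2 were called lower at 30 min against 0 min, 4 at 60 min against 0 min and 1 at 60 min against 30 min. Of all genes tested 3.35%, 11.7% and 7.65% were called lower in these comparisons. In each comparison 0 of the 12 were called higher, beside 4.84%, 13.3% and 8.87% of all genes tested. Gm20634 was among the 2 and among the 4, and the difference from all genes was not tested. Gm38227 fell at 30 min (-0.40, adjusted p = 0.0478). Gm42743, which covers Hist2h2bb on the same strand, fell at 60 min against 0 min by 0.30 (adjusted p = 0.0116), Gm20632 by 0.48 (adjusted p = 0.0351) and Hfe, an iron-regulating gene, by 0.23 (adjusted p = 0.049). Gm20628, antisense to Hist2h2bb, fell at 60 min against 30 min by 0.43 (adjusted p = 0.0108). The strand setting of the counting is not given in the sources used here, so reads of antisense partners may be mixed. Hist2h2bb fell at 60 min by 0.36 alone (adjusted p = 4.2e-05) and by 0.35 when summed with Gm42743.

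Replacement histone variants, most of which can be made outside S phase from polyadenylated mRNA, included no gene that fell at 60 min against 0 min: edgeR, DESeq2 and limma-voom called 0 lower, with 0 at an unadjusted p under 0.05. Of 14 listed 10 were tested: 3 rose at 30 min, 2 rose at 60 min against 0 min, and 1 rose and 1 fell at 60 min against 30 min. Of all genes tested 4.84% were called higher at 30 min, and 13.3% higher and 11.7% lower at 60 min against 0 min. Between 60 and 30 min 8.87% were called higher and 7.65% lower. With only 10 genes tested, 0 called lower at 60 min against 0 min is not far from the 11.7% of all genes. Their median was 0.10 at 30 min, 0.10 at 60 min and 0.01 between these times. H3f3b, an H3.3 gene, averaged 355 ± 1.72 CPM at 30 min and 275 ± 8.72 CPM at 0 min, and rose by 0.37 at 30 min (adjusted p = 2.44e-06). At 60 min it averaged 393 ± 3.29 CPM and was 0.52 above 0 min (adjusted p = 2.13e-08). H3f3a, the other H3.3 gene, was called at 0.15 at 60 min against 0 min (adjusted p = 0.0499), but the call was lost in 11 of 16 alternatives, limma-voom and 7 left-out libraries among them (adjusted p from 0.00374 to 0.275). H2afx, the variant phosphorylated at DNA breaks, rose by 0.18 at 30 min (adjusted p = 0.00947, lost without 30 min replicate 3 at 0.0511, the alternatives starting at 0.00103). It shares 75-base windows with H2A genes such as Hist1h2ab, so its reads may be divided with theirs. Cenpa, the centromeric H3 variant, rose by 0.20 at 30 min (adjusted p = 0.00819) and fell by 0.23 at 60 min against 30 min (adjusted p = 0.00139).

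Among 25 tested genes that process and degrade histone mRNA, edgeR called 0 at 30 min against 0 min, with DESeq2 and limma-voom also at 0 and 1 higher and 1 lower before adjustment (unadjusted p under 0.05). By 60 min 3 rose and 3 fell against 0 min, shares near the 13.3% and 11.7% of all genes tested, and 1 rose against 30 min. Lsm11, a subunit of the U7 particle, fell by 0.25 at 60 min (adjusted p = 0.0157), and Snrpd3, a Sm protein that it shares with spliceosomal particles, fell by 0.15 (adjusted p = 0.0432). Eri1, an exonuclease that acts on the histone stem-loop, rose by 0.15 (adjusted p = 0.00757), as did Snrpb, another Sm protein, by 0.16 (adjusted p = 0.011). Exosc10, an exosome nuclease, rose by 0.18 at 60 min against 30 min (adjusted p = 0.00348). Slbp, named here for its role, was at 0.03 at 30 min and at 0.10 at 60 min against 0 min (adjusted p = 0.874 and 0.291). The Snrpd3 call was lost in 5 of 16 alternatives (adjusted p from 0.0032 to 0.158), without 0 min replicate 1 or 2, 30 min replicate 2, or 60 min replicate 1 or 2. Total counts alone ended the calls of Eri1 and Snrpb, the absence of 60 min replicate 2 that of Snrpb, and the absence of 60 min replicate 3 that of Lsm11.

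Of 27 genes of cluster transcription and S-phase entry, 2 rose at 30 min, 2 rose and 4 fell at 60 min against 0 min, and 2 rose and 3 fell at 60 min against 30 min. Of all genes tested 4.84% were called higher at 30 min. At 60 min 13.3% were called higher and 11.7% lower against 0 min, and 8.87% and 7.65% against 30 min. The counts of this list were near these shares. Cdkn1a, which encodes the inhibitor p21 of cyclin-dependent kinases, stood apart. It averaged 43.9 ± 5.56 CPM at 30 min and 9.03 ± 0.208 CPM at 0 min, and rose by 2.28 (adjusted p = 2.54e-10). At 60 min it averaged 57.9 ± 2.82 CPM, 2.68 above 0 min (adjusted p = 2e-11). Cdkn1b, the related inhibitor p27, fell by 0.40 at 60 min against 30 min (adjusted p = 0.000957) and by 0.21 against 0 min (adjusted p = 0.0382, lost in 8 of 16 alternatives including DESeq2, with adjusted p from 0.00857 to 0.156). Hinfp, a transcription factor of H4 genes, fell by 0.22 at 60 min against 0 min (adjusted p = 0.00847), and Ccnd1, cyclin D1, by 0.17 (adjusted p = 0.00547). E2f2, an E2F transcription factor, was called at 0.18 at 30 min (adjusted p = 0.0369, lost in 9 of 16 alternatives including DESeq2, with adjusted p from 0.0112 to 0.151) and fell by 0.25 at 60 min against 30 min (adjusted p = 0.00288). Npat, named here for its role, was at -0.01 at 30 min and -0.08 at 60 min against 0 min (adjusted p = 0.92 and 0.135).

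The 44 genes of DNA replication summed to 4898, 4830 and 4866 CPM at 0 min, 4922, 4848 and 4926 CPM at 30 min, and 4960, 4936 and 4976 CPM at 60 min. The 60 min libraries were above all others, but the lowest, at 4936 CPM, stood only just above the highest 30 min library, at 4926 CPM. This order holds for the scaled totals and was not tested. With total counts alone the median log2 change of all genes was -0.07 at 60 min against 0 min, so the order depends on the scaling. Between 60 and 30 min edgeR called 0 of these genes, as did DESeq2 and limma-voom, with 6 higher and 2 lower before adjustment (unadjusted p under 0.05). Their median log2 change there was 0.02, beside -0.33 for the histone genes. Against 0 min, 4 of the 44 rose and 4 fell at 60 min, both under the 13.3% of all genes tested called higher and the 11.7% called lower. Among them were Cdt1, a licensing factor, at 0.20 (adjusted p = 0.0012), and Cdc6, also of licensing, at -0.18 (adjusted p = 0.00523). Clspn, a checkpoint adaptor, was at -0.15 (adjusted p = 0.0188), and Pcna, the sliding clamp, at 0.14 (adjusted p = 0.0064). Tyms, which makes thymidylate, was the single one called at 30 min, at -0.15 (adjusted p = 0.013). The 23 histone chaperones summed to 6524, 6840 and 6613 CPM at 0 min, 6699, 6518 and 6482 CPM at 30 min, and 6674, 6659 and 6476 CPM at 60 min, with overlap of all times. Of these edgeR called 0 at 30 min, as did DESeq2 and limma-voom, with 2 higher before adjustment (unadjusted p under 0.05). At 60 min 4 of the 23 rose and 2 fell against 0 min, near the 13.3% and 11.7% of all genes tested. They included Chaf1b at 0.21 (adjusted p = 0.0152) and Chaf1a at -0.14 (adjusted p = 0.0051), both of the replication-coupled assembly factor CAF-1. Hat1, an H4 acetyltransferase, was at 0.13 (adjusted p = 0.0122). Hjurp, the chaperone of Cenpa, fell by 0.19 against 0 min (adjusted p = 0.000524) and by 0.12 at 60 min against 30 min (adjusted p = 0.0186), where it was the single one called. With total counts alone the 60 min calls of Pcna, Chaf1b and Hat1 were lost. Leaving out single libraries ended the calls of Clspn (0 min replicate 1 or 2, 60 min replicate 2), Tyms (0 min replicate 3, 30 min replicate 2), Chaf1b (0 min replicate 2, 60 min replicate 3), Hat1 (0 min replicate 1), and Hjurp between 60 and 30 min (30 min replicate 2 or 3, 60 min replicate 1 or 2).

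**Figure D5:**
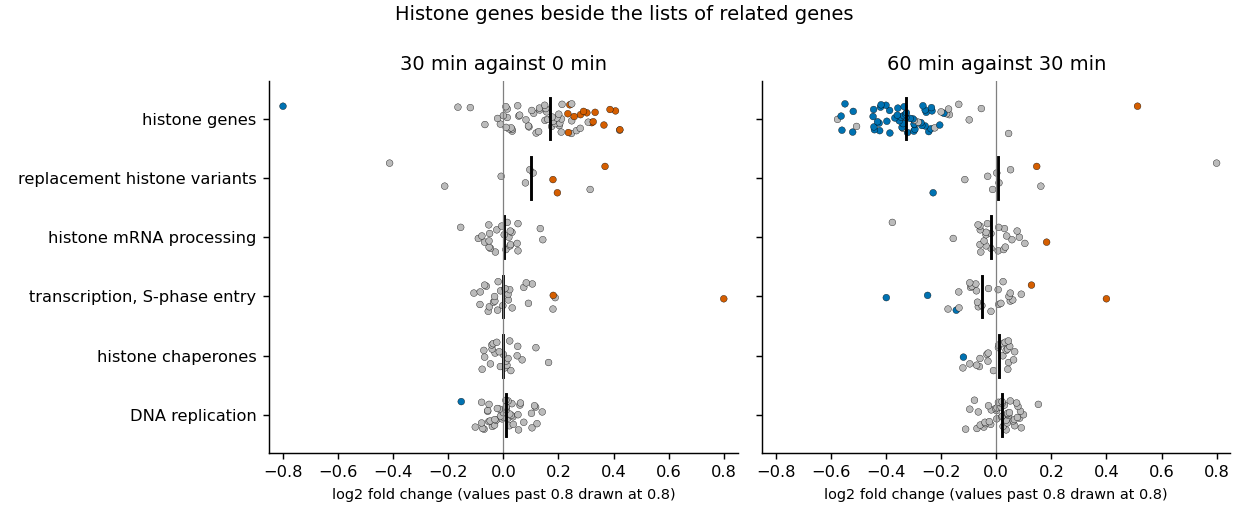
Log2 fold change (horizontal axis) of the 64 histone genes and of 5 lists of related genes (rows) at 30 min against 0 min and at 60 min against 30 min. Points are genes, orange called higher and blue lower, and black lines are medians. The histone genes have medians of 0.17 and -0.33, and the DNA replication genes of 0.01 and 0.02.

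The authors' own comparisons list all 64 genes. Their baseline is not named in the tables and was taken as 0 min because the values match that contrast. In the authors' deposited table for 30 min, 21 of the 64 were higher and 1 lower at their adjusted p under 0.05. Of all 14456 genes with an adjusted p there, 549 were higher and 329 lower. In the authors' deposited table for 60 min, 0 of the 64 were higher and 29 lower. Of all 14897 genes with an adjusted p there, 1490 were higher and 1168 lower. Log2 changes of the 64 genes in the authors' deposited tables differed from the edgeR values by at most 0.01.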

How the data were processed

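The authors deposited a table of expected counts per gene for 9 libraries, estimated with RSEM and not normalized. The submitters' processing notes name, without an order, RSEM 1.3.1, STAR 2.7.0f, cutadapt 1.18, Picard 2.18.26, bcl2fastq 2.20 and DESeq2, and the build mm10. Their settings, the annotation and the strand option were not stated in what was read here. The authors also deposited log2 fold changes, p-values and adjusted p-values of their DESeq2 comparisons.

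Library totals ran from 26867428 to 30402308. Expected counts were rounded to whole numbers and tested with edgeR 4.0.16 (R 4.3.3): TMM scaling, filterByExpr defaults, and a quasi-likelihood fit of 3 time groups over 9 libraries. Tests were two-sided, with Benjamini-Hochberg adjustment over 14246 genes. CPM use TMM-scaled totals, except for cell type markers, which use plain totals. Means carry an SD and fold changes a standard error. p-values measure the spread between these libraries. Identifiers matched GENCODE M21 (GRCm38) for 55450 of 55450. The fit was tested on simulated data with known changes. Replicates differed by more than sampling noise, with a mean chi-square of 4.93 or more per gene.

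The genes described and the lists of related genes were chosen with earlier results of these data known. Genes named were those called, at most 15 with the smallest p in each comparison, the 3 with the highest CPM in each class (a rule for naming, not a comparison of levels), those nearest the count threshold, and of each list up to 4 called genes with the largest change per comparison. Slbp, Npat, Hist1h3a, Hist1h2ad, Hist1h1a, Hist1h2bq, Hist1h2br and the genes near Hist2h3c1 were named outside this rule. Alternatives were DESeq2 1.42.0, limma-voom (limma 3.58.1), RLE size factors, total counts alone, no filter, a minimum count of 50, a replicate block, copies summed, and each library left out in turn. Sums of overlapping or copied loci were added after seeing the data.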

Additional observations from a re-analysis of the deposited data

Results flagged for a closer look

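The change from 0 min differed between 60 and 30 min of LPS for 38 of the 41 histone genes named by the rule. The test was that of edgeR for 60 min against 30 min, at an adjusted p under 0.05. Some of the 41 were named for a small p in this same comparison, so their count is partly set by the naming. Of all 64 histone genes, 49 were called lower and 1 higher, beside 7.65% and 8.87% of all genes tested. The log2 difference was negative, lower at 60 min, in 37 of the 38 named genes. Of the H1 genes these were Hist1h1d at -0.52, Hist1h1b at -0.39, Hist1h1c at -0.32 and Hist1h1e at -0.24. Of the H2A genes these were Hist2h2aa1 at -0.45, Hist1h2an at -0.44, Hist1h2ae at -0.44, Hist3h2a at -0.42, Hist2h2ac at -0.36, Hist1h2ak at -0.34, Hist1h2ap at -0.26 and Hist1h2ag at -0.24. Of the H2B genes these were Hist1h2bl at -0.43, Hist1h2bh at -0.42, Hist2h2be at -0.42, Hist1h2bm at -0.40, Hist1h2bg at -0.34, Hist1h2bf at -0.30, Hist1h2be at -0.30, Hist1h2bj at -0.27, Hist2h2bb at -0.23 and Hist1h2bc at -0.20. Of the H3 genes these were Hist1h3g at -0.56, Hist1h3f at -0.45, Hist1h3c at -0.37, Hist1h3e at -0.35, Hist2h3b at -0.33, Hist1h3d at -0.33, Hist1h3b at -0.31 and Hist2h3c2 at -0.27. Of the H4 genes these were Hist4h4 at -0.55, Hist1h4j at -0.52, Hist2h4 at -0.40, Hist1h4f at -0.33, Hist1h4h at -0.25, Hist1h4k at -0.23 and Hist1h4d at -0.19. The single positive difference was that of Hist2h3c1 at 0.51, whose CPM overlapped between 60 and 30 min. Genes with shared reads are not independent of each other in this list. The call of Hist1h4k was lost in 6 of 16 alternatives: the replicate block, without 30 min replicate 2 or 3, and without any 60 min replicate (adjusted p from 0.00012 to 0.15). Those of Hist1h2bc (without 30 min replicate 2 or 60 min replicate 3), Hist1h2bj and Hist1h2be (both without 30 min replicate 3 or 60 min replicate 3) were lost in 2 of 16 each, that of Hist1h4d without 60 min replicate 1, and that of Hist2h3c1 in 9 of 17.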

How the results depend on the processing

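The direction of each median held under every alternative. At 30 min against 0 min, 14 genes were higher; the count was 32 with no filter on low counts, and 6 to 20 without single libraries. The 1 lower gene became 2 with no filter, 0 with copies summed, and 1 to 2 without single libraries. At 60 min against 0 min, 0 were higher, 2 with no filter and 0 to 1 without single libraries, and the 31 lower became 19 to 33 without single libraries. At 60 min against 30 min, the 1 higher became 0 with limma-voom, with total counts alone and with copies summed, and 0 to 1 without single libraries, and the 49 lower became 42 to 53. The cause was not tested, except that with copies summed Hist2h3c1 is no feature of its own. The share of all genes called under each alternative fit is not given in this report. Changes in these counts of histone genes therefore cannot be told apart from a general shift of calls.

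With the replicate block, 15 genes were higher and 1 lower at 30 min against 0 min, 0 and 27 at 60 min against 0 min, and 1 and 47 at 60 min against 30 min. Same-numbered libraries correlated between -0.064 and 0.006 in their deviations from the group means, and libraries of different numbers between -0.070 and 0.101. Over all genes tested, same-numbered libraries were thus no more alike than others. A shared effect limited to few genes was not tested.

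Class sums moved by less than 1 SD under every alternative, but this was nearly fixed in advance. Only the scaling and the left-out libraries can change a sum, and leaving out 1 of 3 libraries cannot move a mean by 1 SD. With total counts alone H4 changed by -9.13% at 60 min against 0 min, without overlap, in place of -4.69% with overlap. The H1 groups of this comparison, which overlapped with scaled totals, also no longer did. Over the single-gene results, 1986 repeats gave 1835 on the same side of the threshold, 96 that lost a call, 55 that gained one and 0 with a called direction turned round. Depth limits Hist1h1a, with 286 counts in all 9 libraries, and read sharing among copies limits most single genes.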
